A study of Mus musculus with 6 samples.

Results

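The Runx factors and the Cbfa2t corepressors are 7 genes, Cbfa2t3, Cbfa2t2, Runx1t1, Runx1, Runx2, Runx3 and Cbfb, described here by their DNA methylation in naive B cells from mouse spleen. The genes were taken as a list. Their members are the CpG cytosines from 2 kb below the start of each gene to 2 kb above its end by coordinate (GRCm38) that were covered by 10 or more reads in all 6 libraries. These were 1619 of the 1457048 cytosines so covered in the series, with 282 in Cbfa2t3, 68 in Cbfa2t2, 150 in Runx1t1, 314 in Runx1, 302 in Runx2, 334 in Runx3 and 169 in Cbfb. Enhanced reduced representation bisulfite sequencing (ERRBS) reads cytosines in CpG-rich restriction fragments, and counts 5-methylcytosine and 5-hydroxymethylcytosine alike as methylated. The groups were 3 libraries from Tet2 knockout (KO) mice and 3 from Tet2 wild-type (WT) mice, all C57BL/6. The design text of the series speaks of germinal centre cells, but every sample label names naive B cells. Neither the knockout allele, nor whether it is restricted to a cell type, nor the age of the mice is given in the labels. The labels do not say that each library came from its own mouse, so the spread between libraries may be partly technical. The list was proposed with the KO minus WT methylation differences of these libraries in view, and is treated as chosen by them. The differences in these genes are therefore given as a description, without p-values.

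RUNX proteins bind DNA through their Runt domain, and CBFB, which does not bind DNA itself, pairs with them and strengthens that binding. RUNX1 is needed for the emergence of blood stem cells and for B cell development, RUNX3 is best known in cytotoxic T cells and RUNX2 in bone. CBFA2T3 (also ETO2 or MTG16), CBFA2T2 (MTGR1) and RUNX1T1 (ETO or MTG8) do not bind DNA directly and recruit corepressor complexes and histone deacetylases. CBFA2T3 acts in blood cells with TAL1, LDB1 and LMO2, and RUNX1T1 is fused to RUNX1 in a form of acute myeloid leukaemia. TET2 oxidises 5-methylcytosine, a step of demethylation. Mammalian Runx genes are known to be transcribed from an upstream (distal) and a downstream (proximal) promoter.

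RefSeq (GRCm38.p6) gave start windows for 6 of the 7 genes, each from 250 bases before to 50 bases after a start. They are shown for their CpG content and for which of their CpG sites were measured. The upstream windows of Runx1 and Runx3 and the single window listed for Runx2 hold 2, 8 and 2 CpG, and none of their cytosines was covered in all 6 libraries. The capitals in these 3 windows mark TGTGGT, the core of the Runx binding motif, on either strand (ACCACA as read here).
Runx1, chr16:92826025-92826324, minus strand: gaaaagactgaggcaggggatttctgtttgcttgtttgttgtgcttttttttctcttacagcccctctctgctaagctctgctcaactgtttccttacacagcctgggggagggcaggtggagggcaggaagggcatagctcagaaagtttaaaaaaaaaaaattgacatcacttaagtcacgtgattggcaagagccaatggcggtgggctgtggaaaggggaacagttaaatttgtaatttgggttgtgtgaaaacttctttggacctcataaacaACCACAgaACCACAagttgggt
Runx2, chr17:44814578-44814877, minus strand: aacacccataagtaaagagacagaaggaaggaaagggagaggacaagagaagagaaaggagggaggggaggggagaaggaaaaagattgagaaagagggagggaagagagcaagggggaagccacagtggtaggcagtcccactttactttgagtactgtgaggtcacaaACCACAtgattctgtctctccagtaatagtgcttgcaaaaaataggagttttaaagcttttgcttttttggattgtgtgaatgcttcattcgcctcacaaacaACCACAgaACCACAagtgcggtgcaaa
Runx3, chr4:135120395-135120694, plus strand: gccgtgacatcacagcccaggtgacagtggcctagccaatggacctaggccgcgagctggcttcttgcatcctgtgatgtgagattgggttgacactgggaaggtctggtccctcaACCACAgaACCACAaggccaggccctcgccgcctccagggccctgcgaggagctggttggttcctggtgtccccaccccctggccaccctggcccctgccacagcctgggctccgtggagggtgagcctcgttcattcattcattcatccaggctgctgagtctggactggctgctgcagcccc
All 3 windows hold the same run of 18 bases, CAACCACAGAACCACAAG, which carries 2 of these motifs, and no other window among the 32851 of RefSeq holds it. The run begins 26 bases after the start in Runx1, 21 bases after it in Runx2 and 136 bases before it in Runx3. TGTGGT on either strand occurs in 16.8% of all windows. None of the other 6 windows of these genes holds it.

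The downstream windows are CpG-rich. Capitals in the next 3 windows mark CpG sites with a cytosine measured in all 6 libraries, that is the sites behind the levels given below.
Cbfa2t3 upstream, chr8:122699060-122699359, minus strand: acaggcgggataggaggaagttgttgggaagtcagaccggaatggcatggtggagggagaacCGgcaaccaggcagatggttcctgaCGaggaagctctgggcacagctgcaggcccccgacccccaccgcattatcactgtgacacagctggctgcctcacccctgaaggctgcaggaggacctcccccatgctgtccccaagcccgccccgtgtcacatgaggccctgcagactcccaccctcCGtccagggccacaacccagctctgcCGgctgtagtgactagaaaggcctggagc
Cbfa2t3 downstream, chr8:122678126-122678425, minus strand: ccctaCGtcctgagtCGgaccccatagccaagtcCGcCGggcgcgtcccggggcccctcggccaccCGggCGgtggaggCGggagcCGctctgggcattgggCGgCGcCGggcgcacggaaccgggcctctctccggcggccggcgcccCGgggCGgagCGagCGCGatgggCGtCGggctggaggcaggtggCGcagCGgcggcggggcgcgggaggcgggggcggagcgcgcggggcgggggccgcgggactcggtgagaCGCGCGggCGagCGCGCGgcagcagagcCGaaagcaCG
Runx1 downstream, chr16:92697280-92697579, minus strand: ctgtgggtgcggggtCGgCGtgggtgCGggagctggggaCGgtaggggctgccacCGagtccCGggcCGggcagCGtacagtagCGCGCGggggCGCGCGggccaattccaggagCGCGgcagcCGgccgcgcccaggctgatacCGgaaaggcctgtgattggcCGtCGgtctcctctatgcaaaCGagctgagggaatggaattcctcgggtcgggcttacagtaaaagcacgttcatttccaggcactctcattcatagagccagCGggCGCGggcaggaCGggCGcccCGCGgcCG
The Cbfa2t3 upstream window holds 10 CpG, of which 4 were measured, its downstream window 53 with 29 measured, and the Runx1 downstream window 35 with 29 measured. Pooled methylation over the measured cytosines of these windows was 0.603% in KO and 0.775% in WT, 0.593% and 0.544%, and 0.104% and 0.146%, in that order. The upstream window of Cbfa2t3, with fewer CpG than the downstream one, was thus also below 1% methylation.

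Coverage summed over the cytosines of a library was between 168455105 and 207065050, and the median coverage of the members was between 89.5 and 249.5 reads per gene and library. Of the 1871 cytosines of these genes found in any library, 52 were covered in 5 of the 6 libraries and averaged 36.5% methylation, and the 97 measured ones whose lowest coverage was 10 to 15 reads averaged 44.4%. In Tet2, 6 cytosines between 133486189 and 133486297 on chromosome 3 were covered by 28 to 71 reads in every WT library and by 10 or more in no KO library, so the libraries separated there by their genotype label. Markers of the labelled cell type could be read in few places. Within 1 kb of a start, 3 of 10 B cell markers had at least 3 cytosines. Pax5 stood at 0.201% and Cd37 at 0.942% in WT, and Cd22 at 30.5%. Cd22 was higher in every KO library, at 39% ± 2.79 against 30.5% ± 3.76 in WT. Of the T cell markers 4 of 11 were measured, with Cd5 at 92.7% and Zap70 at 86.7%, and Tcf7 and Bcl11b at 9.01% and 3.05%. Zap70 was also higher in every KO library, at 92.1% ± 0.67 against 86.7% ± 2.77 in WT. The other 9 measured markers had overlapping genotypes, and what part other cells had in the values below was not tested. Among other lineages, the starts of Csf3r (myeloid), Eomes (NK cell) and Klf1 (erythroid) lay at 4.95%, 1.30% and 0.558%, and that of Epor (erythroid) at 64.6%.

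The measured gene starts were almost free of methylation in both genotypes. Within 500 bases of its start, Cbfb averaged 0.217% ± 0.123 (SD, n = 3 libraries) in KO and 0.0761% ± 0.0213 in WT over 94 cytosines. Its libraries stood at 0.210%, 0.343% and 0.0983% in KO and at 0.0528%, 0.0945% and 0.0809% in WT, so that the genotypes did not overlap but differed by 0.133 percentage points. Cbfa2t2 averaged 0.168% ± 0.0654 and 0.0977% ± 0.0930 over 63 cytosines, with overlapping libraries. The downstream start of Runx3 averaged 0.143% ± 0.0610 and 0.172% ± 0.0476 over 109 cytosines. The downstream start of Runx1 averaged 0.417% ± 0.0926 and 0.523% ± 0.0282 over 79, with every KO library just below every WT library. In Cbfa2t3 the upstream start averaged 0.680% ± 0.729 and 0.924% ± 0.254 over 13 cytosines. The 101 cytosines around its downstream start averaged 4.62% ± 1.02 and 4.69% ± 0.339, with single cytosines of up to 34.6%. Methylation differed by position there. The tile that holds the start (122678001 to 122679000, 116 cytosines) stood at 0.511% and 0.480%, and the next one downstream (122677001 to 122678000, 21 cytosines) at 30.5% and 28.9%.

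Methylation within the genes was then summarised in tiles of 1 kb with at least 3 cytosines, from the pooled reads of all cytosines in a tile. Of the 140 tiles with a measured cytosine, 99 could be tested: 28 in Runx1, 23 in Runx3, 20 in Runx2, 19 in Cbfa2t3, 6 in Runx1t1, 2 in Cbfb and 1 in Cbfa2t2. By WT level, 25 of the 99 lay below 10%, 7 at 10 to 30%, 5 at 30 to 70%, 17 at 70 to 90% and 45 at 90% or more. Intermediate tiles of 30 to 70% made up 5.05% of them, against 8.51% of all 108802 tested tiles. The Cbfa2t2 and Cbfb tiles covered only the starts, so nothing is known here of the interiors of these 2 genes beyond single tiles of 1 or 2 cytosines.

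**Figure D1:**
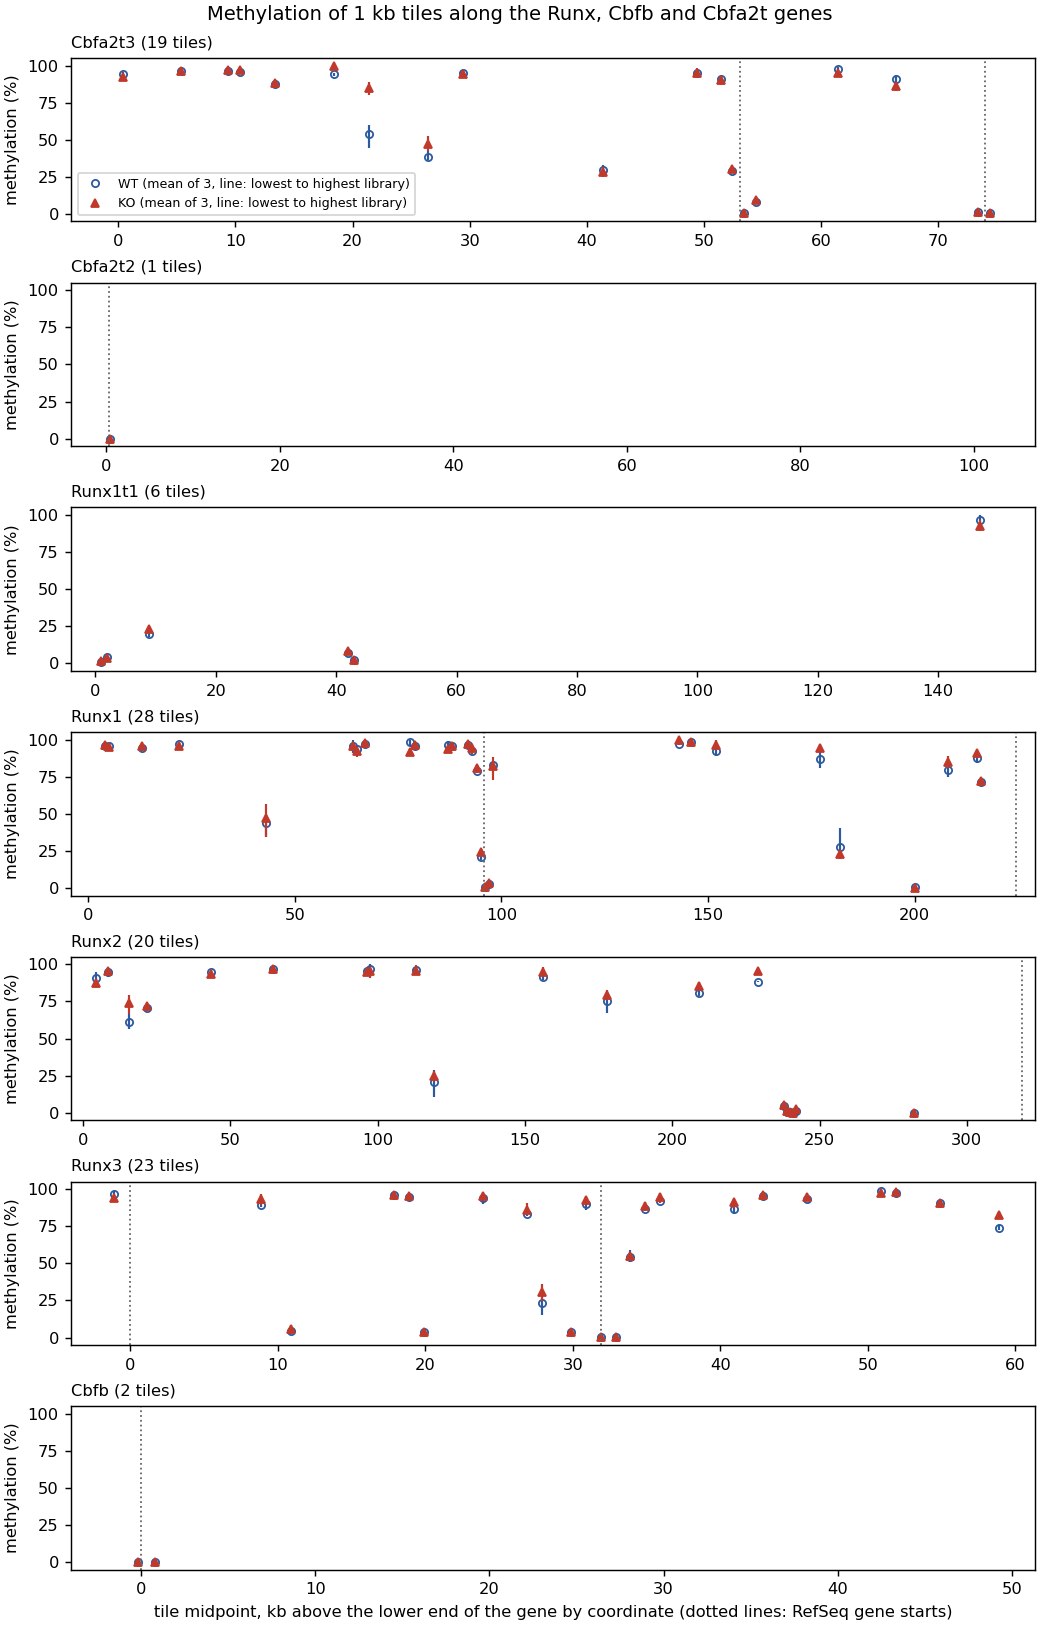
Methylation (%) of each tested 1 kb tile against its distance in kb from the lower end of the gene by coordinate, with 1 panel per gene; circles are WT means, triangles KO means of 3 libraries, vertical lines run from the lowest to the highest library, and dotted lines are RefSeq starts. Tiles at measured starts lie near 0% and most others above 70% in both genotypes; the WT and KO symbols stand farthest apart in Cbfa2t3 at 21.4 kb.

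Cbfa2t3 held the 1 tile that was called in KO against WT, where a call needs an adjusted p under 0.05 by a quasi-binomial model over all tested tiles and a pooled difference of at least 10 percentage points. Across the genome 0.112% of tiles were called, all of them higher in KO. This is the difference for which the gene was listed, so nothing is read from the count. The tile lies on chromosome 8 from 122646001 to 122647000, inside the gene, 31.7 kb downstream of the downstream start and 52.6 kb downstream of the upstream start. Methylation was 89.0%, 85% and 80.2% in KO 1, KO 2 and KO 3, and 44.2%, 57.6% and 60.1% in WT 1, WT 2 and WT 3. The lowest KO library thus stood above the highest WT library, and WT 1 was the lowest of all. The tile rose from 54.0% ± 8.54 in WT to 84.7% ± 4.39 in KO, by 31.1 points of pooled reads. Among all tested tiles 8 had a difference at least as large, this one included. Each cytosine had 31 to 91 reads in a library. The coverage summed over the 8 cytosines was 374 to 494 per library, in which a read that spans several of them is counted at each. Without WT 1 the difference was 26.1 points. The tile was not called when cytosines were weighted equally, by limma on log2 ratios, or without moderation of the overdispersion. It was also not called with the replicate number as a block, or when tiles without information stayed in the fit. With equal weights the difference was 30.3 points. The other settings use the same pooled reads of the tile, so their difference of 31.1 points is the same by construction.

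The difference was uneven within the tile. Its 8 cytosines span 238 bases and include 2 CpG sites read on both strands. The 6 cytosines of Cbfa2t3 from 122646481 to 122646545 were higher in KO by 33.2 to 45.8 points, while those at 122646682 and 122646718 were higher by 9.72 and 5.62 points. The last 2 stood at 75.3% and 93.5% in WT. At 122646545 the KO libraries of Cbfa2t3 stood at 77.3%, 73.8% and 72.1% and the WT libraries at 23.1%, 36.5% and 30%, the largest difference of the 8. At the first Cbfa2t3 cytosine, 122646481, KO 3 stood at 52.8%, below WT 3 at 56.2%, although KO 1 and KO 2 stood at 100% and 90.2%. Every KO library stood above every WT library at 5 of the 8 cytosines. The share of such cytosines over the whole series was not counted. The tile is shown because of its difference, so nothing is read from the 5 of 8. Both strands were higher in KO: the 4 cytosines of the forward strand stood at 79.2% ± 13.5 and 40.6% ± 12.3, and the 4 of the reverse strand at 88.8% ± 3.93 and 69.5% ± 3.87. At the CpG pair 122646522 and 122646523 of Cbfa2t3, the strands differed between genotypes by similar amounts, 36.4 and 40.9 points.

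**Figure D2:**
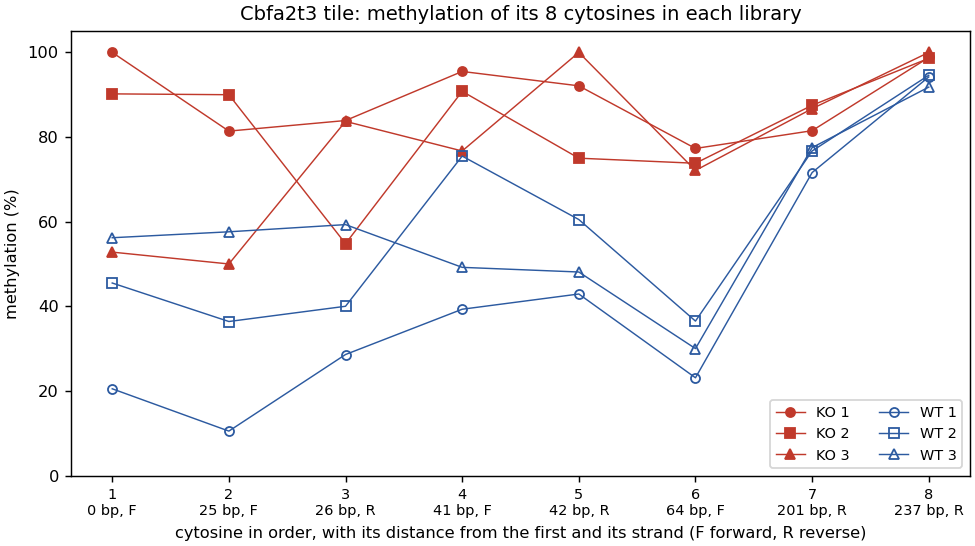
Methylation (%) of the 8 cytosines in the called Cbfa2t3 tile, in order along the chromosome with their distance in bases from the first and their strand; each line is 1 library, filled red for KO and open blue for WT. The genotype means are farthest apart at the sixth cytosine. The libraries are close together at the last, where all are above 90%. KO 3 lies among the WT libraries at the first and second, as does KO 2 at the third.

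Tiles on either side of it in Cbfa2t3 were also higher in KO but were not called. At 122643001 to 122644000 the KO libraries were fully methylated, at 100% each, and the WT libraries at 95.0%, 94.2% and 92.8%. Coverage was low there, with 12 to 42 reads at a cytosine. At 122651001 to 122652000 the KO libraries stood at 52.4%, 42.6% and 46.2% and the WT libraries at 36.2%, 37.2% and 42.6%, a difference of 8.60 points in which KO 2 and WT 3 nearly touch. Within that tile of Cbfa2t3, the pair of cytosines at 122651738 and 122651739 was nearly unmethylated in both genotypes, at 8.24% and 9.03% in KO. The other 3 cytosines differed by 11.1 to 14.4 points. Upstream of the downstream start, the tile at 122686001 to 122687000 was lower in each KO library, at 94.9% ± 1.81 against 97.7% ± 0.896. The remaining 15 tiles of the gene had overlapping genotypes. Among its 19 tiles 11 were higher in KO and 8 lower, with a median difference of 0.0616 points, below the 0.176 points over all tested tiles. With each of its 282 cytosines weighted equally, Cbfa2t3 averaged 42.1% ± 0.0642 in KO and 40.9% ± 0.566 in WT.

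The other corepressor genes had few tested tiles, 6 in Runx1t1 and 1 in Cbfa2t2, and none was called. Runx1t1 was covered mainly at its lower end, where 102 cytosines (13743001 to 13744000) averaged 1.35% ± 0.129 in KO and 1.30% ± 0.387 in WT. The next tile up, with 18 cytosines, was lower in every KO library, at 3.76% ± 0.503 and 4.62% ± 0.329. A tile 8.87 kb above the lower end stood at 22.5%, 21.5% and 25.3% in KO and at 21.5%, 20% and 17.7% in WT. Runx1t1 also had a low-methylated stretch 41.9 kb and 42.9 kb above its lower end, at 7.24% and 2% in WT and 8.35% and 2.22% in KO. Its tile near the upper end was highly methylated, at 92.5% ± 3.43 and 96.5% ± 3.60. Averaged over its cytosines with equal weight, Runx1t1 stood at 9.13% ± 0.180 and 9.05% ± 0.399. In Cbfa2t2 the sole tile, at the start, stood at 0.125%, 0.241% and 0.131% in KO and at 0.197%, 0.0181% and 0.0730% in WT.

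Runx1 was the most methylated of the 7 genes, at 55.3% ± 0.221 in KO and 55.0% ± 0.501 in WT with equal weights. Around its downstream start the unmethylated block covered 2 tiles, at 0.609% and 3.05% in WT. It was bordered by a tile of 21.3% on the inner side and one of 83.2% on the outer side. Of its 28 tiles 16 were at 90% or more in WT, and none was called. In pooled reads the largest difference was toward lower methylation in KO: 3 cytosines at 92679001 to 92680000 stood at 92.0%, 91.6% and 92.0% in KO and at 98.9%, 96.0% and 100% in WT, so the genotypes did not overlap. These cytosines had 24 to 55 reads in a library. In the opposite direction, the tile at 92778001 to 92779000 stood at 94.1% ± 3.19 and 87.0% ± 5.89, with overlapping libraries. With equal weights this difference, of 7.19 points, was larger than the other, of -6.82. The tile at 92809001 to 92810000 stood at 84.9% ± 3.90 and 79.4% ± 6.48, also overlapping. The intermediate Runx1 tile at 92644001 to 92645000, with 16 cytosines, varied widely within each genotype, from 34.3% to 56.6% in KO and from 34.5% to 49.4% in WT.

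Low methylation in Runx1 was also found far from the downstream start. A tile 24.6 kb downstream of the upstream start (92801001 to 92802000) was free of methylation, with 0.204%, 0.933% and 0.152% in KO and 1.65%, 0% and 0% in WT over 3 cytosines. Another 42.6 kb downstream of it stood at 24.8%, 20.6% and 24.4% in KO and at 40.7%, 19.5% and 23.5% in WT, where WT 1 alone was high, on a coverage of 118 summed over the 4 cytosines. The upstream start itself had no measured cytosine within 500 bases. The 3 nearest Runx1 cytosines inside the gene, at 92824959, 92825125 and 92825146, were at 0% in every library but 1 each, which stood at 6%, 0.595% and 3.64%.

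Runx2 held a wide unmethylated block well inside the gene by coordinate. From 44733001 to 44738000, 77.1 to 81.1 kb downstream of the start that RefSeq lists, 5 adjacent tiles of 4 to 60 cytosines stood between 0.162% and 4.34% in WT and between 0.214% and 5.28% in KO. A further tile of 53 cytosines at 44777001 to 44778000 stood at 0.0916% and 0.101%. It lies at the lower end of Supt3, a gene that overlaps Runx2 and encodes a subunit of the SAGA coactivator complex. Of the 20 tested Runx2 tiles, 3 in its methylated remainder had every KO library above every WT library, as had 8.35% of all tested tiles. Nothing is read from this count. The largest difference was at 44511001 to 44512000, 15.5 kb above the lower end. There 7 cytosines stood at 79.5%, 66.8% and 75.6% in KO and at 56.8%, 59.8% and 66.4% in WT, so that KO 2 and WT 3 nearly met. The pooled difference was 13.2 points and that with equal weights 8.09, and the tile was not called.

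The most even of these Runx2 tiles was at 44724001 to 44725000, 90.1 kb downstream of the listed start. Its 10 cytosines stood at 95.9%, 95.4% and 94.4% in KO and at 88.0%, 88.6% and 87.8% in WT. The gap of 7.03 points was larger than the spread within either genotype (SD 0.796 and 0.380), but below the 10 points required for a call. At 44704001 to 44705000 the pooled values differed by 4.98 points, whereas with equal weights the difference was 0.242. Over the whole gene, equal weights gave 26.2% ± 0.133 in KO and 25.5% ± 0.431 in WT.

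Runx3 had low-methylated tiles on the way from its upstream to its downstream start. In order along the gene, 6 cytosines 10.9 kb downstream of the upstream start stood at 4.19% in WT, 17 cytosines at 19.9 kb at 3.97% and 10 cytosines at 29.9 kb at 3.60%. The KO means at these places were 5.91%, 3.93% and 3.76%, with overlapping libraries. The tile at 27.9 kb, with 3 cytosines, stood at 32.2%, 35.9% and 24.4% in KO and at 14.9%, 26.7% and 29.2% in WT. Around the downstream start the block of 2 tiles with 103 and 52 cytosines stood at 0.126% and 0.346% in KO and at 0.175% and 0.292% in WT. It ended in an intermediate tile, at 55.2% ± 1.19 and 54.1% ± 4.15. Past the upper end of the gene, at 135179001 to 135180000, 3 cytosines stood at 79.8%, 84.3% and 83.9% in KO and at 72.2%, 73.6% and 75.7% in WT. The genotypes did not overlap there, and the difference was 9.15 points in pooled reads and 4.72 with equal weights. The third largest difference of the gene, at 135161001 to 135162000, was 91.2% ± 3.19 against 86.3% ± 3.04, with overlapping libraries. No Runx3 tile was called, and 18 of 23 were higher in KO. With equal weights the gene stood at 39.9% ± 0.413 and 39.4% ± 0.552.

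Cbfb was measured at its start almost alone, in 2 tiles of 81 and 85 cytosines. The first stood at 0.260%, 0.463% and 0.126% in KO and at 0.0670%, 0.118% and 0.0857% in WT. The second stood at 0.0936% ± 0.0185 and 0.0723% ± 0.0325. Each library was below 0.5% in both tiles. Single cytosines were higher, up to 3.01% over the pooled libraries within 500 bases of the start and 13.6% in a library in the start window. A cytosine of the first tile had 13 to 281 reads in a library.

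**Figure D3:**
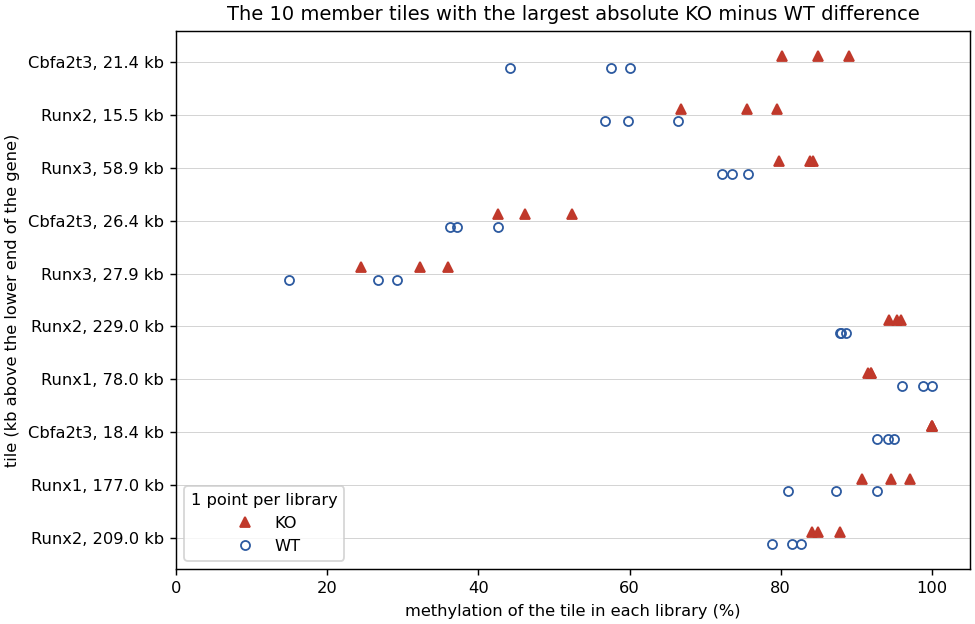
Methylation (%) in each library of the 10 tiles of these genes with the largest absolute KO minus WT difference, named by gene and distance in kb above its lower end; triangles are KO and circles WT libraries. The KO and WT libraries are far apart in the Cbfa2t3 tile at 21.4 kb, nearly touch in the Runx2 tile at 15.5 kb, and are tightly grouped in the Runx2 tile at 229 kb, while Runx1 at 78.0 kb is lower in KO.

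Over all 7 genes, 68 of the 99 tiles were higher in KO and 31 lower, that is 68.7% higher, against 59.8% of all tested tiles. The median difference was 0.355 points, against 0.176. The lowest KO library exceeded the highest WT library in 10 tiles (10.1%), against 8.35% of all tested tiles, and the opposite held in 4 (4.04%), against 3.36%. In the 25 tiles below 10% in WT no difference exceeded 1.63 points, and in the 45 at 90% or more none exceeded 6.52. All 5 intermediate tiles were higher in KO in pooled reads, by 1.68 to 31.1 points, and 1 of them was called, against 0.842% of all intermediate tiles. With equal weights their differences were 30.3 and 10.2 points in Cbfa2t3, 8.09 in Runx2, 0.0609 in Runx1 and -0.14 in Runx3. In 3 of the 5 the genotypes did not overlap, against 14% of all intermediate tiles. A gain of 10 points or more in KO was found in 2 of the 99 tiles, that of Cbfa2t3 and that of Runx2, against 1.26% of all tested tiles. None of the 99 was lower in KO by as much. These counts use the differences that the list was chosen by, and nothing is read from them.

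**Figure D4:**
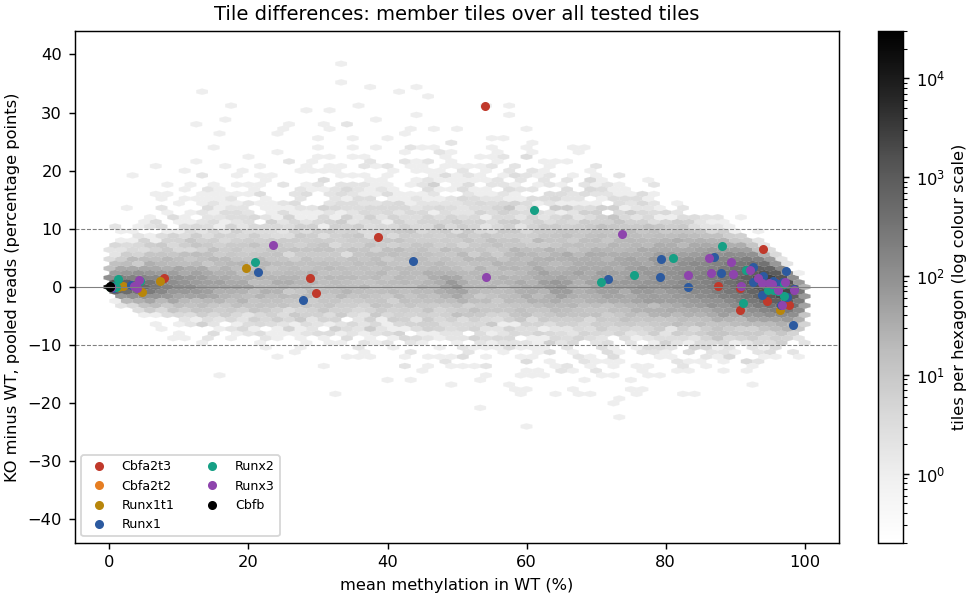
KO minus WT difference in pooled reads (percentage points) against the mean methylation in WT (%) for every tested 1 kb tile of the genome (grey hexagons, log colour scale) and for the 99 tiles of the 7 genes (coloured points); dashed lines mark 10 points in either direction. The Cbfa2t3 tile at 31.1 points lies above nearly all other tiles, and the other points of these genes lie within the grey cloud.

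No gene was called as a whole. With all cytosines of a gene and its flanks pooled, the differences were 5.32 points in Runx2, 3.94 in Runx1, 0.654 in Runx1t1, 0.466 in Cbfa2t3, 0.304 in Runx3, 0.0645 in Cbfa2t2 and 0.0142 in Cbfb. With equal weights those of Runx2 and Runx1 were 0.645 and 0.373 points, so the size of these differences depended on the weighting. Equal weights gave 1.25 points in Cbfa2t3. Of all 16435 protein-coding genes, 0% were called and 3624 (22.1%) passed 0.05 before adjustment (quasi-binomial model). That model uses pooled reads, so its result for a gene also depends on how the reads of each library were spread over the cytosines. The median difference was 1 point in pooled reads and 0.157 with equal weights. In pooled reads Runx1 and Runx2 had every KO library above every WT library, as had 24.9% of all genes. With equal weights Runx2 and Cbfa2t3 did, and Runx1 did not. In WT, the order of the genes with equal weights was Runx1, Cbfa2t3, Runx3, Runx2, Runx1t1, Cbfb and Cbfa2t2, and neighbours in this order were farther apart than the spread of their libraries. The order also depends on which CpG sites of each gene were read.

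Partners and targets of these factors, in lists chosen with earlier results of these data known, gave 1 call by the same quasi-binomial rule, under which 0.112% of all tiles were called. Of all tiles 7.20% had an unadjusted p under 0.05 and 59.8% were higher in KO. Among 20 Runx cofactors and partners, such as the Tle corepressors, Ep300 and Kat6a, 0 of 133 tiles were called (8, or 6.02%, at an unadjusted p under 0.05), and 60.2% were higher in KO. The largest difference lay in Smad3, a transducer of TGF-beta signals, at 50.4% ± 10.4 and 30.8% ± 11.5 with overlapping libraries. Among 27 partners of the Cbfa2t proteins, from Ncor1 and Hdac3 to Tal1, Ldb1 and Gfi1b, 0 of 204 tiles were called (14, or 6.86%, at an unadjusted p under 0.05) and 63.7% were higher. Of 30 genes listed as Runx targets, not all of them of blood cells, 23 had a tested tile. Of the 118 tiles of this list 1 was called, 8 (6.78%) had an unadjusted p under 0.05 and 68.6% were higher. The call was in Ebf1, a transcription factor required for B cell commitment. It stood at 87.9%, 84.2% and 87.9% in KO and at 55.4%, 71.6% and 56.6% in WT, without overlap. The Ebf1 tile rose by 24.8 points, and was not called without KO 1, KO 2, KO 3, WT 1 or WT 3. Since the list was chosen with earlier results known, nothing is read from this call. Median differences of the 3 lists were 0.0521, 0.139 and 0.276 points, against 0.176 over all tiles.

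The tiles in other protein-coding genes whose 6 library values were nearest to those of the Cbfa2t3 tile were in Zbtb44, Bcas1 and Bnip5. Likeness was measured as the root mean square difference over the 6 libraries, which was 4.15, 4.35 and 4.43 points. The Zbtb44 tile, which lies in a zinc finger gene, stood at 91.8%, 85% and 87.9% in KO and at 48.1%, 62.0% and 61.2% in WT.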

How the data were processed

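ERRBS was done on naive B cells of mouse spleen, 3 Tet2 KO and 3 WT libraries. The authors used Bismark on GRCm38, per the submitters' processing notes. The sources used here do not give versions, trimming or the treatment of duplicates. Coverage, as deposited, is the raw count of reads at each CpG cytosine and strand, 10 or more and not normalized, and the deposited methylation is the percent of reads with C or T, per the file headers. Multiplying coverage by percent gave back the C and T reads, and 100% of the products were whole numbers when the percent was allowed to be off by 0.0005 points. Reads come from PCR without molecular identifiers.

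Genes and start windows came from RefSeq (GRCm38.p6), and all 224031 measured cytosines inside its start windows fell on a CpG there. C and T counts were summed per 1 kb tile (at least 3 cytosines) and per gene with flanks (at least 5). KO and WT were compared with a quasi-binomial model, 4 residual degrees of freedom, overdispersion by Pearson residuals, moderated by limma 3.58.1 and held at 1 or above, with an F test and Benjamini-Hochberg adjustment over all 108802 tiles or 16435 genes; the code was tested on simulated data. Tiles with no methylated or no unmethylated read were left out. Values are mean ± SD over n = 3 libraries, and differences KO minus WT of pooled reads. With 3 against 3 libraries the smallest exact permutation p is 0.1, so none is given.

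The genes, gene lists and tests were chosen with earlier results of these data known. Named were all 7 genes, their called tiles, the tiles with the 3 largest differences of each and those at starts, and of each list the called tiles or the largest difference (that of the Cbfa2t partners is not reported here); other tiles, and the run shared by the Runx windows, were chosen after their values were seen. No genome sequence was used, so the letters of the Cbfa2t3 tile are not shown. Coverage minimum, coverage limit, weighting, grid, cytosines per tile, block, moderation, limma and each library left out were the alternatives, and 2 more were added after seeing the data.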

Additional observations from a re-analysis of the deposited data

How the results depend on the processing

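The number of called tiles in the 7 genes was 1, and it was 0 with cytosines weighted equally in limma, with the replicate block, without moderation of the overdispersion, with limma on log2 ratios, and with tiles without information kept. The last setting was chosen after seeing the data, as was overdispersion from the deviance, under which 1 tile was called. The Cbfa2t3 tile had the largest difference under every setting run. It was 30.3 points with equal weights. The other 4 settings that lost the call use the same pooled reads of the tile, so their 31.1 points only repeat the main value. Why the call was lost was not tested. Over all tiles the count of 122 calls was 0 in each of these 5 settings and 52 to 119 on leaving out a library. Leaving out each library in turn gave 26.1 to 34.3 points and 1 called tile each time. A pairing of the libraries by the numbers 1 to 3 of the labels was not seen. Same-numbered KO and WT libraries correlated in their deviations with r = 0.0481, -0.0293 and -0.00736 over 29505 tiles. KO 1 correlated best with WT 1, and KO 2 and KO 3 best with another number. Correlations this small cannot exclude a pairing. With the replicate block 0 tiles of the 7 genes were called, while the pooled Cbfa2t3 difference of 31.1 points is the same by construction. The called tile of the gene lists, in Ebf1, was lost in the same 5 settings (0 tiles), with at least 5 cytosines per tile (0), since it has 4, and on leaving out libraries (0 to 1). No member gene was called as a whole under any setting run. Of 384 values for single genes and tiles, 364 kept their call or moved by less than the spread between libraries and none of the called ones changed sign. Many of these could not move. The block, the lack of moderation, limma on log2 ratios, the kept tiles and the deviance leave the pooled difference unchanged. For uncalled values under these settings the outcome was fixed in advance, so the count of 364 is no measure of robustness. Coverage of 10 reads per cytosine resolves single values to about 10 points, so tiles of few cytosines are the least certain.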

Other observations

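Of the 140 tiles with a measured cytosine in these genes, 41 held 1 or 2 cytosines and were not tested. In 26 of them (63.4%, against 59.8% of tested tiles genome-wide) the pooled methylation was higher in KO, and in 3 (7.32%, against 8.35%) every KO library was above every WT library. One of these, chosen after its values were seen, lay in Runx1 on chromosome 16 from 92621001 to 92622000. Its 2 cytosines stood at 76.2%, 76.4% and 80.6% in KO and at 65.6%, 65.5% and 63.1% in WT, with 88 to 195 reads at a cytosine, a difference of 13.1 points. In Runx2, the tile from 44567001 to 44568000 was lower in each KO library, at 89.3%, 90.8% and 78.7% against 96.2%, 98.4% and 95.0%, with 13 to 69 reads at a cytosine. A single cytosine of Runx2 in the tile from 44615001 to 44616000 averaged 50.5% ± 7.77 in KO and 35.2% ± 6.96 in WT, with overlapping libraries. Runx2 also had 2 nearly unmethylated cytosines from 44607001 to 44608000, at 7.48% ± 1.46 and 4.74% ± 1.62. No cytosine of the 7 genes was covered in all KO libraries and in no WT library, or the reverse.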
